A study of Bos taurus with 11 samples.

Results

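Chromatin of untreated rumen epithelial primary cells was described from 175741 intervals of enriched signal, the part of 371758 deposited intervals that came from the 5 control libraries of H3K4me3, H3K27ac, H3K4me1, H3K27me3 and CTCF. These are all rows of the control libraries, and no measured value was used to choose them. Intervals of butyrate-treated cells were not counted. The genes listed beside them did help to place gene starts, and their ends entered the chromosome span. The cells were grown from the rumen of 1 Holstein bull calf, 2 weeks old and fed milk replacer only, and the control cultures received no butyrate. Each target was measured in 1 library of 75-nt reads, and the ChIP libraries were called against a pooled input. With 1 library per target from 1 animal there were no replicates, so every difference between targets stands as a value with no test, and each 95% interval (exact Clopper-Pearson) covers counting error only. The design notes give the reads as single-end, whereas the study's text speaks of paired-end reads, and the files do not settle this. The read depth of each library was not analysed here. Depth and antibody can both change how many intervals are called, and their part in the numbers was not tested.

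The 5 targets are marks of different kinds of regulatory DNA. H3K4me3, trimethylation of lysine 4 of histone H3, sits at promoters and at CpG islands, the stretches rich in CpG that hold many mammalian promoters. H3K27ac, acetylation of lysine 27, marks active promoters and active enhancers. H3K4me1 marks enhancers and the flanks of promoters, whether they are active or not. H3K27me3 is laid down by Polycomb repressive complex 2 over genes that are kept silent, often those of other tissues, and it cannot sit on the same histone tail lysine as H3K27ac. CTCF is a zinc finger protein that binds its own DNA motif and holds chromatin loops and domain borders. The rumen wall carries a stratified squamous epithelium, in which basal cells with keratins KRT5 and KRT14 divide and cells above them cornify, and which takes up and oxidises the short-chain fatty acids of fermentation.

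H3K4me1 had the most intervals and H3K27me3 the longest. The number of intervals was 54071 for H3K4me1, 38148 for H3K27ac, 29406 for CTCF, 27292 for H3K4me3 and 26824 for H3K27me3. The median length was 7199 bp for H3K27me3, 854 bp for H3K4me3, 666 bp for H3K27ac, 440 bp for H3K4me1 and 364 bp for CTCF. These lengths depend on how intervals are split: with intervals less than 1 kb apart merged, the median was 1921 bp for H3K4me3, 1282.5 bp for H3K27ac and 865 bp for H3K4me1, in the same order. As a result H3K27me3 covered 267 Mb, or 10.0% of the chromosome span seen in the files, whereas H3K27ac covered 1.53%, H3K4me1 1.49%, H3K4me3 1.28% and CTCF 0.535%. The calling differed as well: all H3K27me3 intervals started on a 200 bp grid, against at most 0.527% of the intervals of any other target. The deposited signal of an interval is given as its average and its highest value. The scaling between libraries was not stated, so signals are compared below only within a target. The highest value exceeded the average by a median factor of 2.75 in H3K27me3 intervals, against 1.62 for H3K4me3, 1.38 for H3K27ac, 1.33 for CTCF and 1.20 for H3K4me1. This factor can rise with the length of an interval, and the part of length and of calling in it was not tested. Within a target, longer intervals were also stronger, with a Spearman rho across intervals of 0.84 for H3K4me3, 0.74 for H3K27ac, 0.68 for CTCF, 0.61 for H3K4me1 and 0.25 for H3K27me3. These are correlations across intervals of 1 library, which are not independent replicates.

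The place of each interval was read from the genes that the files list beside its summit (the position of highest signal), as within 2 kb of a listed gene start, elsewhere within a listed gene, or between genes. H3K4me3 was the promoter mark of the 5, with 60.9% of its intervals at gene starts, followed by H3K27ac with 33.3%, CTCF with 20.5%, H3K4me1 with 16.9% and H3K27me3 with 14.2%. Each of these shares had an interval no wider than 0.597 percentage points to either side. H3K4me1 and H3K27ac intervals lay most often inside genes (52.5% and 41.4%), H3K27me3 most often between genes (55.7%), and CTCF was split evenly between gene bodies (39.8%) and the space between genes (39.7%). The median distance from a summit to the nearest listed start was 0.843 kb for H3K4me3, 4.78 kb for H3K27ac, 7.79 kb for CTCF, 8.93 kb for H3K4me1 and 9.65 kb for H3K27me3. Among listed intervals, 39.6% of H3K4me3 summits and 25.9% of H3K27ac summits were within 500 bp of a start, but only 4.98% of H3K4me1 summits were.

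**Figure D1:**
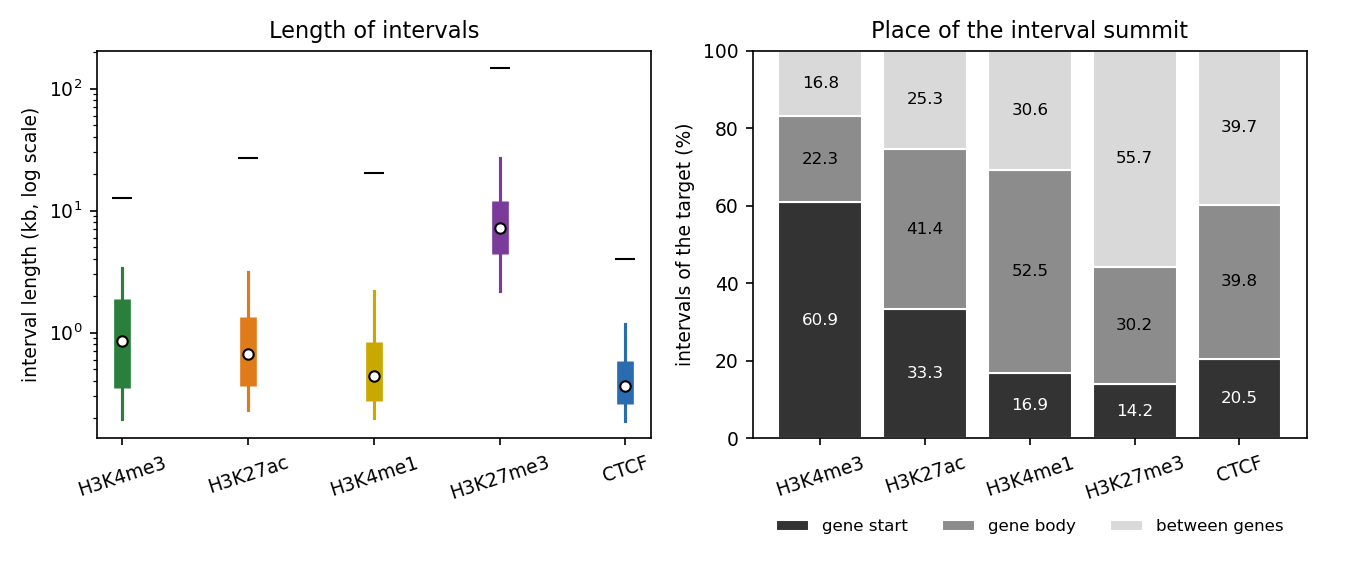
Left, length of the intervals of each target in kb on a log axis: circle, median; thick bar, middle 50%; thin line, 5% to 95% quantile; dash, longest interval. Right, share of each target's intervals whose summit lay within 2 kb of a listed gene start, elsewhere in a gene or between genes. H3K27me3 stands above the other 4 targets in length, and H3K4me3 has the largest share at gene starts, 60.9%.

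Place went with strength for some targets and not for others. H3K4me3 intervals at starts had a median average signal of 70.9, against 36.1 between genes and 29.7 in gene bodies, and the median lengths of these 3 sets were 1345, 546 and 446 bp. H3K27ac showed the same order, 37.5 at starts, 24.6 between genes and 23.4 in gene bodies. H3K4me1 hardly varied with place (37.5, 36.1 and 36.5), and neither did the length of CTCF intervals (365, 366 and 361 bp), whose signal was a little lower at starts (34.6) than between genes (39.3). H3K27me3 was stronger at starts (11.4) than between genes (7.11) or in gene bodies (7.36).

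CpG islands set the 2 lysine 4 marks apart. An annotated CpG island was touched by 65.4% of H3K4me3 intervals, 34.7% of H3K27ac, 26.0% of H3K27me3, 22.0% of CTCF and 14.3% of H3K4me1 intervals. At gene starts the share was 76.6% for H3K27ac, 75.9% for H3K4me3, 71.4% for H3K27me3 and 65.7% for CTCF, but 37.7% for H3K4me1. Between genes it was still 58.8% for H3K4me3, and at most 16.2% for the other targets. Longer intervals have more room to touch an island, and the part of length was not tested.

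Overlap was then counted for each ordered pair of targets, as the share of the intervals of one that shared at least 1 bp with an interval of the other. H3K27ac joined both lysine 4 marks: 55.2% of H3K27ac intervals were overlapped by H3K4me1 and 43.1% by H3K4me3. In the other direction, 54.4% of H3K4me3 and 43.3% of H3K4me1 intervals were overlapped by H3K27ac. The 2 lysine 4 marks went with different DNA. H3K27ac intervals with H3K4me3 touched a CpG island in 74.5% of cases, against 4.44% of those without it, whereas H3K27ac intervals with H3K4me1 did so in 20.0% of cases, against 52.7% of those without it. H3K4me3 intervals that H3K27ac overlapped were stronger and longer than the rest, with a median signal of 83.0 against 29.8 and a median length of 1705 bp against 408 bp.

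H3K27me3 shared ground with the other targets very unevenly. Its intervals covered 10.0% of the span, but overlapped only 2.70% of H3K27ac intervals, 9.86% of H3K4me1 intervals, 21.8% of CTCF intervals and 22.8% of H3K4me3 intervals. The H3K4me3 intervals inside it were short and weak: their median length was 584 bp and their median signal 38.2, against 1030 bp and 57.8 for H3K4me3 outside it, and 84.7% of them touched a CpG island, against 59.7%. The CTCF intervals inside it were if anything stronger than those outside, with a median signal of 41.3 against 36.9. In bases, 1.27% of the DNA under H3K27ac lay under H3K27me3 as well, against 13.0% of the DNA under H3K4me3 and 23.1% of that under CTCF. Most H3K27me3 intervals, 72.8%, met no other target, and so did 50.5% of CTCF and 40.4% of H3K4me1 intervals, against 17.5% of H3K4me3 and 15.9% of H3K27ac intervals.

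**Figure D2:**
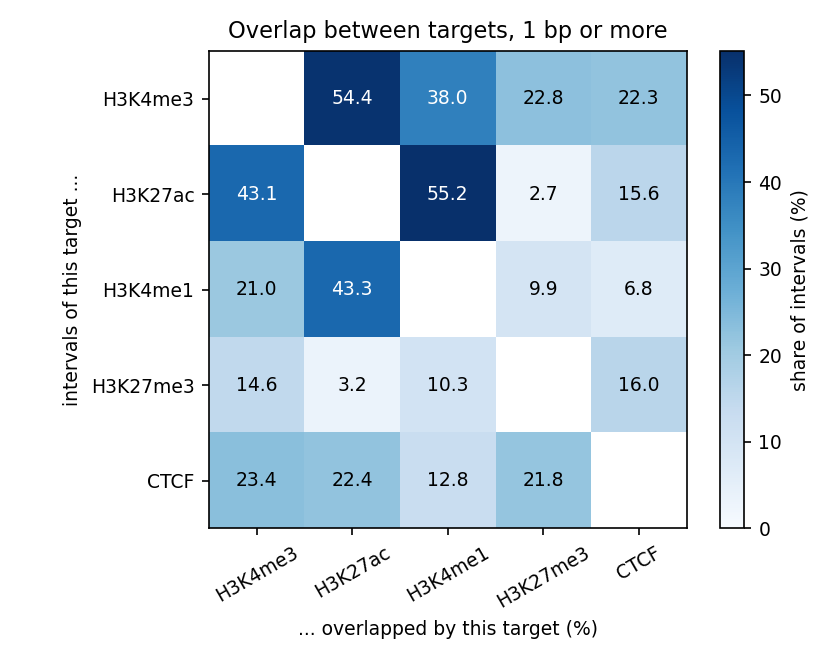
Share (%) of the intervals of the target in each row that share at least 1 bp with an interval of the target in each column. The lowest shares are those of H3K27ac with H3K27me3 (2.70%) and H3K27me3 with H3K27ac (3.25%), and the highest are H3K27ac with H3K4me1 (55.2%) and H3K4me3 with H3K27ac (54.4%).

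To combine the targets gene by gene, a start was derived for 23870 gene symbols of the 25197 listed, and an interval was counted at a start when it reached within 2 kb of it. A gene had to be listed beside at least 2 intervals over all 10 ChIP libraries, those of butyrate-treated cells included. Control listings alone gave 21752 starts. Genes far from any interval are therefore missing from the shares of all starts given below. H3K4me3 was at 13552 starts (56.8%), H3K27ac at 11299 (47.3%), H3K27me3 at 7889 (33.0%), H3K4me1 at 7344 (30.8%) and CTCF at 5884 (24.7%). Classes were defined from these. Active starts, with H3K4me3 and H3K27ac and without H3K27me3, numbered 9399 (39.4%). Polycomb starts, with H3K27me3 and neither H3K4me3 nor H3K27ac, numbered 4472 (18.7%). Unmarked starts, with none of the 5 targets, numbered 4382 (18.4%). Bivalent starts, with both H3K4me3 and H3K27me3, numbered 3383 (14.2%). The 2 intervals each had only to reach within 2 kb of the start, so they need not overlap. At the start itself, H3K27me3 covered 73.7% of bivalent starts and H3K4me3 64.1%. In a bulk culture, both marks on the same chromatin also cannot be told apart from each mark in a different share of the cells or on a different allele. The other 2234 starts fell in none of these classes.

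All 32 possible combinations of the 5 targets occurred, but 16 of them held 92.9% of the starts. After the starts with none, the most frequent were H3K27me3 alone (3748) and then the 4 combinations of H3K4me3 and H3K27ac with or without H3K4me1 and CTCF: H3K4me3 and H3K27ac only (3298), with H3K4me1 (2371), with CTCF (2007) and with both (1723). H3K4me3 was seldom seen with no other target (413 starts), and so were CTCF (386) and H3K4me1 (378). H3K27ac without H3K4me3 was found at 637 starts. Adding CTCF or H3K4me1 hardly moved the H3K4me3 signal of active starts, whose median ran between 94.4 and 102 in the 4 combinations, while H3K4me3 intervals were longest where H3K4me1 was also present (median 2610 bp, and 2679 bp with CTCF, against 2100.5 bp for H3K4me3 and H3K27ac only).

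**Figure D3:**
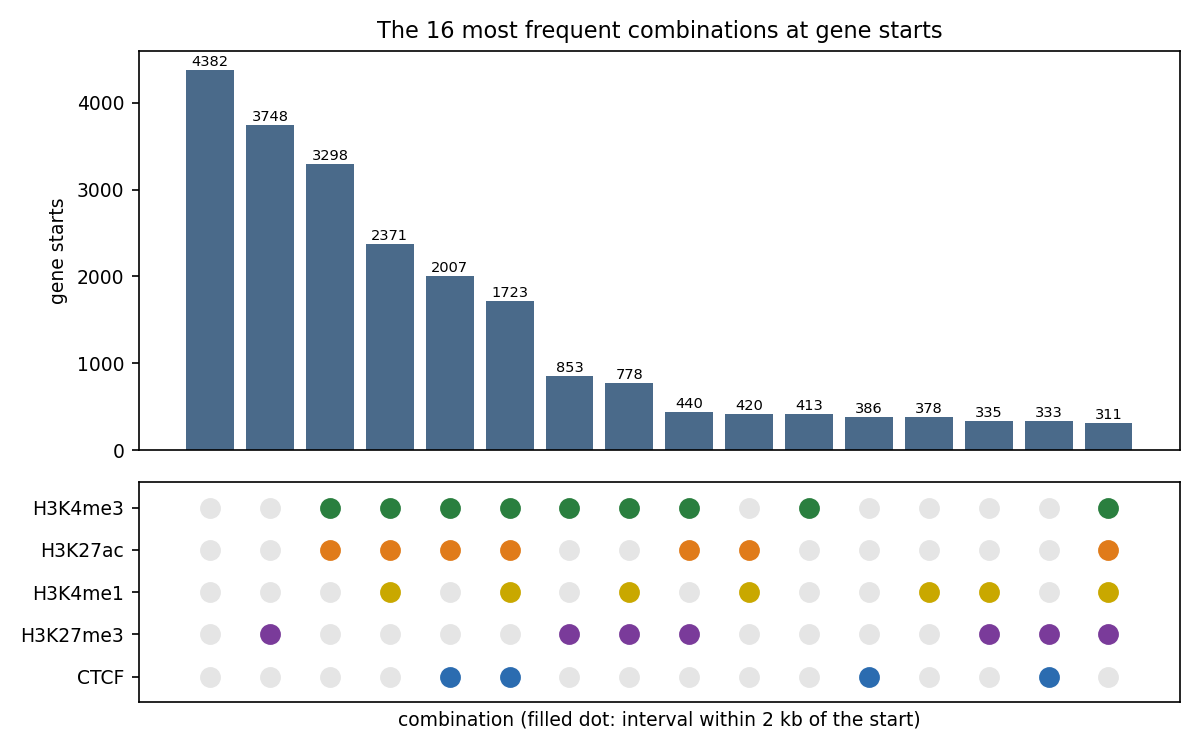
Number of gene starts with each of the 16 most frequent combinations; filled dots under a bar show which targets had an interval within 2 kb of the start. The first bar, 4382 starts, has none of the 5 targets, and the second, 3748 starts, has H3K27me3 alone.

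The gene starts that represented these combinations by signal had different roles. For H3K4me3 with H3K27ac only they were CPEB2, which binds mRNA and controls its translation, MED13, a Mediator kinase module subunit, and FAM60A, a subunit of the SIN3 deacetylase complex. CPEB2 had a signal of 168 for H3K4me3 and 153 for H3K27ac. With H3K4me1 added they were FSTL3, a secreted binder of activin, UBALD1 and PITX1, a homeobox factor of hindlimb development, whose H3K4me3 interval was 7288 bp and whose H3K27ac interval was 7424 bp long. With CTCF they were ZMYM2, POLR3E, a subunit of RNA polymerase III, and KIF1B, a kinesin, with CTCF signals of 108, 108 and 93.7. With all 4 active targets they were S100A2, a calcium-binding protein of basal keratinocytes in human skin, BBC3, an effector of p53-driven apoptosis, and SNX19. For H3K27me3 alone they were SCRT1, LHX5 and FGF4, the first 2 being neural transcription factors and the third an embryonic growth factor, with H3K27me3 signals of 102, 56.6 and 52.3. For H3K4me3 with H3K27me3 they were PPM1L, FGD4 and ENO2, the neuronal form of enolase, with an H3K4me3 signal of 95.9 and an H3K27me3 signal of 18.2 at ENO2.

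The classes differed in more than the marks that defined them. H3K4me1 was at 48.4% of bivalent, 43.6% of active and 8.74% of Polycomb starts, and CTCF was at 39.7% of active, 29.6% of bivalent and 8.70% of Polycomb starts. A start of another gene on the opposite strand lay within 1 kb of 30.3% of active starts (interval 29.3% to 31.2%), 14.5% of bivalent, 6.78% of Polycomb and 2.40% of unmarked starts, so such pairs were most frequent in the active class. The order of the 2 starts was not checked, so these need not be head-to-head pairs. Both starts of a pair were counted and can share intervals, whereas the interval given treats starts as independent. H3K27me3 intervals at Polycomb starts were longer than at bivalent starts, with a median of 12599 bp against 9799 bp, and a little weaker, 10.1 against 11.8. Bivalent starts with H3K27ac (1263) had H3K4me3 intervals much like those of active starts (median signal 96.1, length 2066 bp) and weak H3K27me3 (8.92), whereas those without H3K27ac (2120) had short H3K4me3 intervals (44.5, 782 bp) and stronger H3K27me3 (14.2). Across bivalent starts, H3K4me3 and H3K27me3 signals ran against each other (Spearman rho of -0.38 over 3383 starts). The other pairs were taken over the starts of any class with both marks. There H3K4me3 and H3K27ac ran together (0.40 over 10662 starts), and H3K4me3 and H3K4me1 showed no relation (0.01 over 5969 starts). These starts share 2 libraries each, and the values are a description.

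The intervals also took up different positions around the start. At active starts H3K4me3 covered most starts 0.2 kb downstream (91.3%), and H3K27ac likewise (84.4%). Both reached farther into the gene than upstream of it, with H3K4me3 over 79.6% of starts at 1 kb downstream and 45.9% at 1 kb upstream. H3K4me1 did the opposite of H3K4me3: it covered 3.88% of active starts at the start itself, and 16.7% at 1.3 kb downstream, where it was highest. CTCF formed a narrow peak at the start (14.1%) and was down to 3.55% at 1 kb upstream. H3K27me3 was absent within 2 kb of active starts by definition. Farther out it was uneven, over 12.5% of active starts at 10 kb upstream and 4.37% at 10 kb downstream. At bivalent starts H3K27me3 was also wider upstream (61.0% at 5 kb) than into the gene (43.6%), while at Polycomb starts the 2 sides were closer, with 60.9% and 67.0%. The highest H3K27me3 coverage of bivalent starts, 80.5% at 2 kb upstream, lies at the edge of the 2 kb window that defined the class.

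**Figure D4:**
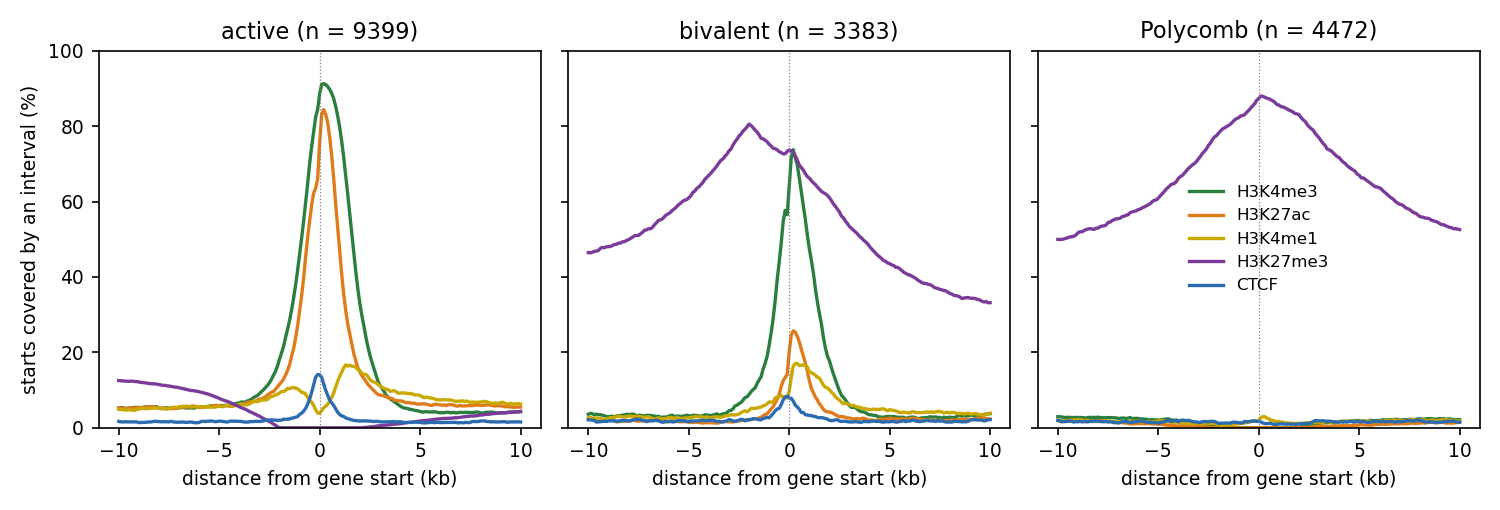
Share of active (9399), bivalent (3383) and Polycomb (4472) gene starts whose position at each distance, from 10 kb upstream (negative) to 10 kb downstream in steps of 0.1 kb, was covered by an interval of each target. H3K4me1 dips to 3.88% at active starts where H3K4me3 peaks, and H3K27me3 stays high far beyond bivalent and Polycomb starts.

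Away from gene starts, H3K27ac went mainly with H3K4me1, as is usual for enhancers. Of 25443 distal H3K27ac intervals, 67.0% were overlapped by H3K4me1 (interval 66.4% to 67.6%), 19.5% by H3K4me3, 10.1% by CTCF and 1.58% by H3K27me3, and 22.5% by none. The converse was less frequent: of 44933 distal H3K4me1 intervals, 43.2% were overlapped by H3K27ac and 45.6% stood alone. Those alone were shorter (median 339 bp) and weaker (33.8) than those with H3K27ac (687 bp, 39.7). Distal CTCF was the most solitary of the 3, with 60.4% of 23383 intervals alone. A further 19.2% were overlapped by H3K27me3 and no other target, and these were stronger than those alone, with a signal of 42.1 against 37.8. H3K27ac was densest, by number of distal intervals listed, in CUX1, a homeobox factor (57 intervals), LMO7, a junction-associated LIM protein (51), and MICAL2, an actin oxidoreductase (51). LMO7 also had 71 distal H3K4me1 intervals, CUX1 66 and FNDC3B 72, and none of these genes had a distal H3K27me3 interval. H3K27me3 was densest in SHANK2, a synaptic scaffold (25), NSG1, a neuronal endosomal protein (25), and CSGALNACT1 (24). NAV2 had 23 distal CTCF intervals and FRMD4B 19. VPREB1 led for H3K4me3 (29), H3K4me1 (84) and CTCF (31). Some of these counts go with very long annotated spans: the farthest interval listed inside the gene lay 872.5 kb from the start for NSG1, 787 kb for NAV2, 762 kb for VPREB1 and 568 kb for SHANK2, against 301 kb for FNDC3B, 296 kb for CUX1 and 215 kb for LMO7. The counts were not adjusted for the length of the span, and whether each span belongs to a single gene was not checked.

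The strongest and the longest intervals of each target named different genes. The strongest H3K4me3 interval was at BBC3 (chr18:54682786-54683455 of UMD3.1, average signal 245), followed among annotated genes by PIM3, a survival kinase (233), INSIG1, the sterol-controlled anchor of the SREBP pathway (229), HS6ST1, a heparan sulphate sulphotransferase (215), and DUSP7, a phosphatase of ERK (210). The intervals of all 5 were overlapped by H3K27ac and held at least 1 CpG island. The longest was the 12.7 kb interval at PAX9 (chr21:47286037-47298761), the paired-box factor of foregut and squamous oesophageal epithelium in the mouse, followed by U2AF2 (10.6 kb), TPM4 (10.2 kb) and BRD2 (9.89 kb). The H3K27ac leaders by signal were EPC1 (175), NADK (158), EIF3B (156), an interval 21.0 kb downstream of the start of KCTD7 (155), and CPEB2 (153), all with H3K4me3. By length they were PMEPA1, a target and brake of TGF-beta signalling (26.8 kb, chr13:59021849-59048682), HTRA1, a secreted protease (19 kb), RARA, the retinoic acid receptor alpha (16.6 kb), and DUSP1 (16.3 kb). All 4 also met H3K4me1 and CTCF, and 3 of them H3K4me3, with HTRA1 the exception. Among annotated genes H3K4me1 was strongest at IFITM3 (154), MKNK2 (128), near PRR33 (120), MAFK (114) and RHBDF2 (113), and longest within SKI, a repressor of SMAD signalling (20.5 kb), IFFO2 (19.1 kb), SEMA3F (16.2 kb) and VAV2 (16.1 kb).

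Among annotated genes H3K27me3 was strongest at MN1 (108), TNXB, the gene of tenascin X (103), SCRT1 (102), KIAA1644 (97.9) and near IFNB3, an interferon beta gene (97.8), none of which met H3K27ac. Its longest interval, 146 kb, held CHRNA4, a nicotinic acetylcholine receptor subunit, and 14 CpG islands. The next were one around FAM163B (146 kb, 35 islands), the HOXA cluster listed by its member HOXA9 (140 kb, 32 islands) and one at RLBP1 (137 kb). In all, 254 H3K27me3 intervals were at least 50 kb long, which is 0.947% of the intervals but 6.69% of the bases. Their median signal was 15.6, against 7.45 over all H3K27me3 intervals, and the 380 gene starts inside them were 271 Polycomb and 109 bivalent. Among annotated genes CTCF was strongest 7.37 kb upstream of RIPK4, a kinase of epidermal differentiation (158), then at GORASP2 (130), near SLC4A3 (129), and at SH2D6 (127) and MAP2K1 (125). Its longest intervals, 3.76 to 4.04 kb, were listed with BAI1, LFNG, FAM131C and MPP2, and 3 of the 4 met H3K27me3, with LFNG the exception. Other starts of high signal, by the rank of starts for each target, were RAP2A and ZMYM2 for H3K27ac (145 and 140), IFITM1 and ABCA2 for H3K4me1 (154 and 111), TBX1, a T-box factor, for H3K27me3 (89.6), and AHCYL1 for CTCF (123). IFITM1 and IFITM3 shared their interval.

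Some places were extreme for several targets. Of the places formed by the 100 strongest intervals of each target, 453 belonged to 1 target, 17 to 2, 2 to 3 and 1 to 4. The last was a cluster of tRNA genes (chr3:8102200-8130799), with signals of 234 for H3K4me3, 175 for H3K4me1, 149 for CTCF and 91.7 for H3K27me3. The other 2 were chr28:1891600-1895199, with no listed gene, where H3K4me1 (259), H3K4me3 (238) and H3K27me3 (117) all stood out, and FRMD8 (chr29:44270936-44283792), with CTCF (120), H3K27ac (116) and H3K4me1 (94.1). The part of repeats or copy number in these 3 places was not tested.

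Chromosomes varied with their genes. Chromosome 19, with the most gene starts per Mb (21.8), was highest for all 5 targets, for example with 52.1 H3K4me1 and 26.6 H3K4me3 intervals per Mb. Chromosome X, present in 1 copy in a bull, had 4.80 starts per Mb, close to the lowest autosome (5.20). Its 5.61 H3K4me3 intervals per Mb were within the range of the autosomes (5.55 to 26.6), but the other 4 targets were below every autosome. H3K4me1 had 3.45 intervals per Mb on X, against 9.99 to 52.1 on the autosomes, and H3K27me3 2.12 against 5.82 to 19.7. H3K27ac had 5.70 on X, against 7.75 to 32.5, and CTCF 3.86, against 6.29 to 25.8. The median signal of H3K27ac, H3K4me1 and CTCF intervals on X was also below every autosome (23.6, 30.7 and 31.9), while that of H3K4me3 (44.4) and H3K27me3 (7.82) was not. The part of copy number in this was not tested.

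The label of the cells was checked against marker genes. Of 32 adhesion and basal keratin genes with a start, which hold basal epithelium together, 17 were active, 6 bivalent, 1 Polycomb, 1 unmarked and 7 in none of these classes. The active share, 53.1%, had an interval of 34.7% to 70.9%, which takes in the 39.4% of all starts. H3K27ac was at 21 of the 32, or 65.6%, against 47.3% of all starts, and H3K4me1 at 23, or 71.9%, against 30.8% of all starts. KRT5, the basal keratin, had a signal of 65.9 for H3K4me3, 32 for H3K27ac and 66.7 for H3K4me1. Among starts with each mark, its H3K4me1 lay at percentile 93.8 and its H3K4me3 at percentile 24.1. The simple-epithelial keratins KRT7, KRT8, KRT18 and KRT19 were active too, with H3K4me3 between 62.6 and 108. ITGB4, the hemidesmosome integrin, had an H3K4me3 signal of 149, at percentile 98.3, and H3K27ac of 41.7. Members with high H3K27ac included LAMB3, a chain of laminin 332 (81.0), CD44 (64.8), and DSC3 (61.9) and DSG2 (59.1), desmosomal cadherins. H3K27me3 was at 7 members (21.9%, against 33.0% of all starts), among them PKP1 (32), CLDN7 (30.8), DST (16.1), EPCAM (15.1), PKP3 (15.0) and OCLN (10.8), with H3K4me3 as well at all of these except CLDN7. CDH1, the E-cadherin gene, had only CTCF at its annotated start (53.4), with 3 H3K27ac and 3 H3K4me1 intervals inside the gene. KRT14 had only H3K4me1 (39.8), and DSG3 was unmarked.

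The regulators of epithelial identity were transcription and splicing factors together with the kinase RIPK4 and SFN, the adaptor protein 14-3-3 sigma. Of 18 starts 3 were active, KLF4, RIPK4 and SFN, so that KLF4 was the one active start among the factors proper. The active share, 16.7%, had an interval of 3.58% to 41.4%, against 39.4% of all starts. A further 6 starts were bivalent (GRHL1, ESRP1, ESRP2, OVOL1, OVOL2 and TFAP2A), or 33.3% against 14.2% of all starts, 2 Polycomb (GRHL2 and TFAP2C), TP63 unmarked and 6 in none of these classes. KLF4, a factor of squamous differentiation, had an H3K4me3 signal of 171, at percentile 99.6, H3K27ac of 64.0 and CTCF of 97.4. H3K27me3 was at 8 of the 18, or 44.4% against 33.0% of all starts, and was highest at TFAP2A (30.9), ESRP1 (29.4), GRHL2 (27), ESRP2 (26.3), TFAP2C (20.8) and OVOL1 (20.3). ELF3 (42.6), KLF5 (25.2) and EHF (19) had H3K27ac without H3K4me3 at the start.

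For several of these factors the strongest active marks lay away from the annotated start. TP63, the factor of basal squamous cells whose shorter form starts at an internal promoter in human and mouse, had none of the 5 targets at its annotated start but 13 H3K27ac and 19 H3K4me1 intervals inside the gene. The strongest were a 5.35 kb H3K27ac interval (signal 65.6, chr1:78083628-78088982) and an H3K4me3 interval of 1841 bp (59.4), both with summits 196 kb inside the gene, and no H3K27me3 interval was listed in it. TFAP2A had an H3K4me3 signal of 151 at 5.32 kb inside the gene and a 5.99 kb H3K27ac interval at 9.87 kb, and TFAP2C had H3K4me3 of 129 at 5.33 kb. KLF5 had H3K4me3 of 87.8 at 5.07 kb and H3K27ac of 43.2 at 5.10 kb. EHF had a 5.53 kb H3K27ac interval 26.2 kb inside it (59.3), and KRT17, of the keratin list, an H3K4me3 signal of 126 and an H3K27ac signal of 68.5 inside the gene, 6.28 and 5.61 kb from its start. GRHL2 had no H3K27ac interval in the gene, and H3K27me3 (27) and weak H3K4me3 (26.4) near its start. Counted over the whole gene, H3K4me1 was inside 15 of these 18 genes, H3K4me3 inside 14 and H3K27ac inside 12, where 39.3%, 52.0% and 45.5% of all genes with a start had such an interval. Longer genes have more room to hold an interval, and the part of gene length was not tested.

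Genes of the cornified layers carried few active marks at their starts. Of 23 with a start, 14 were Polycomb (60.9%, against 18.7% of all starts), 7 unmarked (30.4%, against 18.4%), 1 bivalent and 1 active (4.35%, against 39.4%). H3K27me3 was at 15 of them (65.2%, against 33.0% of all starts), highest at CNFN, cornifelin (28.1), LOR, loricrin (20.5), KLK7 (13.6) and KLK5 (13.3), proteases of desquamation, CALML5 (11.4), and KRTDAP and SBSN, which shared an interval (11.2). The keratins of upper layers KRT1, KRT2, KRT4 and KRT13 had H3K27me3 of 5.93 to 10.9 and no H3K4me3, while KRT10, IVL and SPINK5 were unmarked at the start. KRT10 did hold 1 H3K4me3 and 1 H3K27ac interval inside the gene. Counted over the whole gene, H3K4me3 was inside 6 of the 23, H3K4me1 inside 5 and H3K27ac inside 4, against 52.0%, 39.3% and 45.5% of all genes with a start. Gene length was not adjusted for here either. TGM1, the transglutaminase that crosslinks the cornified envelope, was the active one (H3K4me3 76.2, H3K27ac 24.3), and PPL, periplakin, had both H3K4me3 (78.5) and H3K27me3 (5.97).

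Of 25 genes for the transport and use of short-chain fatty acids, 15 were active (60.0%), with an interval of 38.7% to 78.9% that takes in the 39.4% of all starts. SLC16A1, the monocarboxylate transporter MCT1, had H3K4me3 of 101 and H3K27ac of 69.5, and was among the 6 members of highest H3K27ac with ATP6V1A (77.4) and ATP6V0D1 (67.4), subunits of the proton pump, OXCT1 (64.7) and CPT1A (61.6), enzymes of ketone and fatty acid oxidation, and ATP1B1 (52.7). H3K27me3 was highest at SLC9A3, a sodium-proton exchanger (32.9), CA12 (23.6), ACSS1 (22.3), SLC16A3, the transporter MCT4 (22.1), and SLC9A2 (20.0). HMGCS1, the cytosolic HMG-CoA synthase, was active (H3K4me3 98.5, H3K27ac 34.1).

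Genes that every dividing cell uses were mostly marked as active. All 26 proliferation genes with a start had both H3K4me3 and H3K27ac, which were at 56.8% and 47.3% of all starts. Of the 26, 23 were active (88.5%, against 39.4% of all starts). AURKA (69.2), MCM6 (69.5), MCM7 (60.4), CENPE (54.1), KIF11 (53.8) and TYMS (52.0) had the highest H3K27ac, while MKI67, TOP2A and BUB1B also had H3K27me3 (14.6, 8.91 and 9.99). Of 77 ribosomal protein genes, 62 were active (80.5%) and 13 bivalent (16.9%, near the 14.2% of all starts). Of 25 housekeeping genes 22 were active (88.0%). The unmarked housekeeping starts were B2M and SNRPD3. SNRPD3 had H3K4me3 of 121 at 9.65 kb inside the gene, and for B2M the only interval listed was H3K27me3 9.82 kb upstream, so an unmarked start in these files need not mean an unmarked gene.

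**Figure D5:**
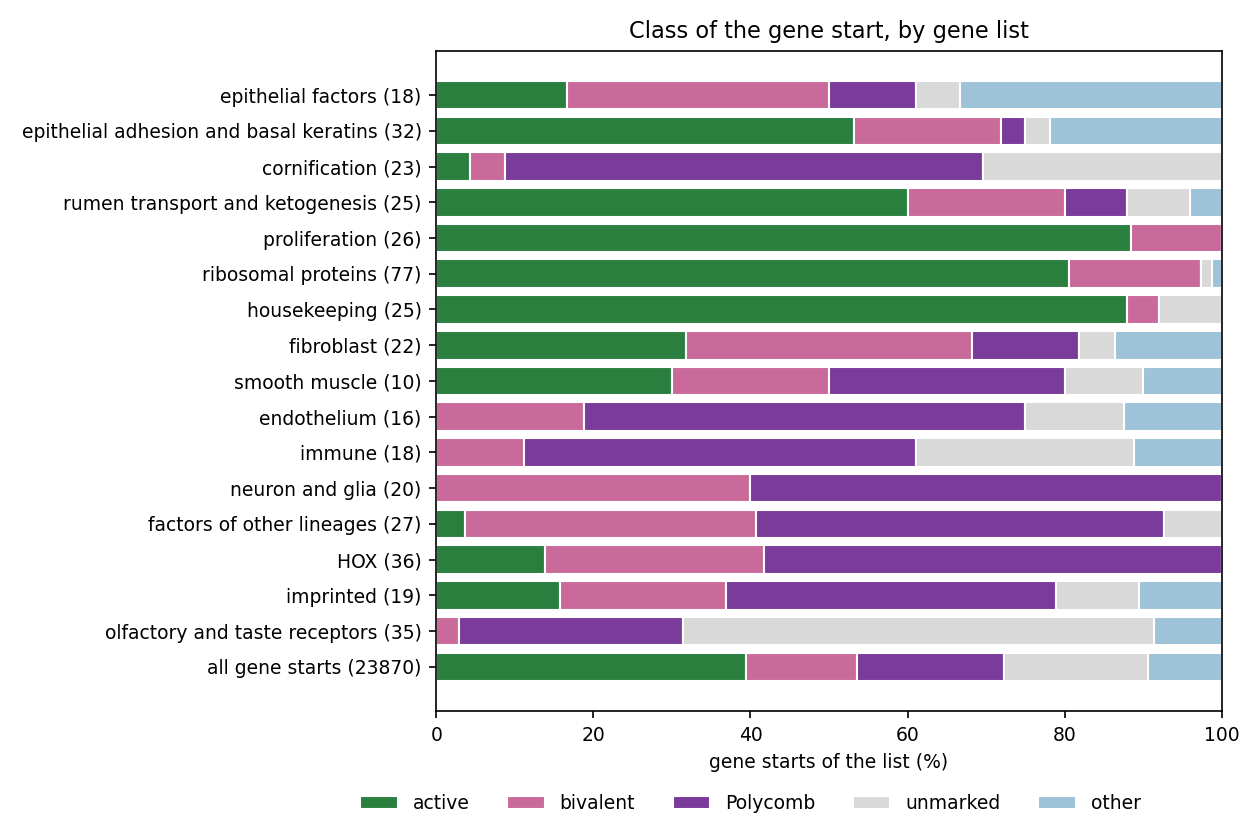
Share of the gene starts of each list (number with a start in parentheses) that were active, bivalent, Polycomb, unmarked or other, with all 23870 gene starts in the bottom row. Proliferation, ribosomal and housekeeping lists are mostly active, adhesion genes 53.1% active, and the endothelial, immune, neural and olfactory lists hold no active start.

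Genes of mesenchymal cells were split. Of 22 fibroblast genes with a start, 7 were active (31.8%, against 39.4% of all starts), 8 bivalent (36.4%, against 14.2%) and 3 Polycomb (13.6%, against 18.7%). H3K27ac was at 9 of the 22 (40.9%, against 47.3% of all starts). The active ones included VIM, the intermediate filament vimentin (H3K4me3 120, H3K27ac 80.1, at percentile 91.5 of H3K27ac), ZEB1 (64.7), TWIST2 (57.9), SNAI2 (57.1), FN1 (53.8) and COL1A1 (48.1, all H3K27ac), that is collagen, fibronectin and factors of epithelial-mesenchymal transition. PRRX1 also had H3K27ac (55.4), but with H3K27me3 (8.79). H3K27me3 was highest at FOXF1 (40.1), CDH2 (30.4), TCF21 (27.6), TWIST1 (26.3), PDGFRA (19.6) and THY1 (11.8), and PDGFRB was a Polycomb start (10.2). Of 10 smooth muscle genes, 3 were active (against 39.4% of all starts), 2 bivalent, 3 Polycomb, 1 unmarked and 1 in no class. H3K27ac was at 4 of the 10, against 47.3% of all starts. TAGLN (H3K4me3 145, H3K27ac 61.2), ACTA2 (117, 56.2) and CNN1 (105, 42.8) were active. MYH11 (H3K27me3 16.7) and DES (17.6), markers of mature muscle, and KCNMB1 (6.97) were Polycomb. The bivalent starts were MYOCD and LMOD1, and LMOD1 had H3K4me3 of 87.9, H3K27ac of 30.2 and H3K27me3 of 6.94. ACTG2 was unmarked, and SYNPO2 had H3K4me3 and CTCF only. Epithelial cells with mesenchymal genes active in culture and a mix with mesenchymal cells cannot be told apart in these bulk libraries, and their share was not tested.

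Markers of endothelium, blood and nerve seldom had H3K27ac at their starts, but the lysine 4 marks were not absent. H3K4me3 was at 18.8% of endothelial, 11.1% of immune and 40.0% of neural and glial starts, against 56.8% of all starts. H3K4me1 was at 43.8%, 22.2% and 40.0% of them, against 30.8% of all starts. No endothelial start of 16 had H3K27ac, against 47.3% of all starts. H3K27me3 was at 12 of the 16 (75.0%, against 33.0% of all starts), highest at SOX18 (34.0), CLDN5 (30.1), SOX17 (27.5), ESAM (23.8), FLT1 (23.6) and PROX1 (20.4). Inside the gene, however, VWF, the von Willebrand factor gene, held 11 H3K27ac and 21 H3K4me1 intervals, and ERG 5 and 7. Of 18 immune genes none was active, against 39.4% of all starts. H3K27me3 was at 11 of the 18 (61.1%, against 33.0% of all starts), led by IKZF1 (19.9), CD8A (18.3), RUNX3 (17.5) and CD79A (15.5). SPI1 (29.5), CD14 (24.5) and CD68 (23.8) were the 3 with H3K27ac (16.7%, against 47.3% of all starts), whereas PTPRC, the pan-leukocyte CD45 gene, was unmarked. All 20 neural and glial starts had H3K27me3, against 33.0% of all starts. It was highest at GRIN1 (48.4), GAD1 (31.5), NEUROD1 (30.9), NEUROG2 (29.7), SLC17A7 (26.8) and STMN2 (26.4). Of the 20, 8 were bivalent (40.0%, against 14.2% of all starts), and 1 of them, SNAP25, also had H3K27ac (19.7). Of 35 olfactory and taste receptor starts 21 were unmarked (60.0%, against 18.4% of all starts). Only receptor genes listed beside an interval could enter this list, so the share does not describe the whole family.

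Developmental regulators had H3K27me3 at most of their starts. Of 27 factors of other lineages 24 had it (88.9%, against 33.0% of all starts), highest at NKX2-1 (41.4), HAND1 (40.9), LHX3 (38.5), LHX2 (37.6), PDX1 (37.1) and ONECUT1 (32.8), and only FOXA1, a pioneer factor of endodermal epithelia, was active (H3K4me3 133, H3K27ac 79.9). Of 36 HOX genes 31 had H3K27me3 (86.1%, against 33.0% of all starts), where genes of one cluster share 1 or 2 long intervals. The 5 active ones (13.9%, against 39.4% of all starts) were HOXC4, HOXC5, HOXC6, HOXC8 and HOXC9. The 79.2 kb H3K27me3 interval over HOXC10 to HOXC13 ended 2.15 kb from the HOXC9 start, so the active class of HOXC9 rests on the 2 kb window. The 7565 bp H3K4me3 interval over the HOXC9 start overlapped that H3K27me3 interval. Of 19 imprinted genes 12 had H3K27me3 (63.2%, against 33.0% of all starts), and 6 had CTCF, a share of 31.6% that is near the 24.7% of all starts. H19 (83.4), KCNQ1 (68.5) and IGF2 (49.4) had the highest CTCF of these, and all 3 had H3K27me3 (12.7, 12.7 and 27.9). The 3 active imprinted starts were NNAT, NAP1L5 and IGF2R.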

How the data were processed

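Rumen epithelial primary cells were profiled by ChIP-seq for 5 targets, with 1 control library each. The submitters' processing notes name Trim Galore 0.4.1, BWA, MACS2 and the build UMD3.1, and the input was pooled. The deposited table gives for each interval its coordinates, the peak and average signal (the authors' coverage values, scaling not given in the sources used here), CpG islands, and listed genes with distances to their starts. Intervals of the 5 control libraries were used. A gene start was taken where at least 2 listings placed it at 1 position in at least 90% of cases, which gave 23870 starts. Listings of all libraries, butyrate-treated ones included, were used for this. Symbols with no such start were left out. An interval within 2 kb of a start was counted as present, and overlap needed 1 bp. The chromosome span (2660 Mb) ran to the last interval of each chromosome over all libraries, butyrate-treated ones included. No difference was tested, since each target had 1 library. Members and gene lists were chosen with earlier results of these data known. Genes were named by rank of signal, length or interval number within target, combination or list, leaving out provisional symbols and some members not reported here, and genes with strong intervals away from their starts were picked after their values were seen. A check on simulated intervals recovered the starts and overlaps. Alternatives were a stricter threshold, windows of 1 and 5 kb, overlap of 50% of the shorter interval, starts from control listings, merged intervals and equal interval numbers. Python 3.11, pandas and scipy were used. No promoter sequence was used here.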

Additional observations from a re-analysis of the deposited data

How the results depend on the processing

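When the 25% of intervals with the lowest peak signal of each target were left out, median lengths were 1315 bp for H3K4me3, 891 bp for H3K27ac, 552 bp for H3K4me1, 8399 bp for H3K27me3 and 430 bp for CTCF. With intervals less than 1 kb apart merged, they were 1921, 1282.5, 865, 7599 and 396 bp, in the same order of targets. H3K27me3 stayed the longest and CTCF the shortest under both. The share of H3K4me3 intervals overlapped by H3K27ac was 61.8% under the stricter threshold, 53.8% with overlap of 50% of the shorter interval and 52.2% among the 25000 intervals of highest peak signal. That of H3K27ac overlapped by H3K4me1 was 51.8%, 51.3% and 41.9%, and that of H3K4me1 overlapped by H3K27ac was 42.1%, 40.0% and 46.9%, so the order of these last 2 shares turned round with equal numbers of intervals. That of H3K4me3 overlapped by H3K27me3 was 22.3% and 21.2% under the first 2. With a window of 5 kb, unmarked starts fell to 2827, and active starts became 6 among epithelial factors, 2 among cornification genes and 1 among immune genes, which also had 1 under the stricter threshold. The counts of active, bivalent and Polycomb starts and of starts with each target stayed within 1.5 times under all alternatives run for them. Of 637 other values, 150 moved, most of them shares outside their counting interval or small list counts. No paired analysis was possible because each target had 1 control library. The main limits are the lack of replicates, an unstated scaling of signal, a read depth not analysed here, and annotated starts that can lie away from the start in use.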
